A study of Neurospora crassa with 8 samples.

Results

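The genes described here are 7 genes of constitutive heterochromatin and DNA methylation in the filamentous fungus Neurospora crassa. They were chosen by gene identifier, not by any measured value, although earlier results of these data were known. The list makes up 7 of the 9730 genes in the deposited table. They are dim-5 (NCU04402), dim-7 (NCU04152), dim-8 (NCU06605), dim-9 (NCU01656), cul4 (NCU00272), hpo (NCU04017) and dim-2 (NCU02247). The study asked what changes when pas (NCU04278), a proposed accessory subunit of Polycomb repressive complex 2 (PRC2), is deleted. Poly-A RNA came from 2 strains labelled ∆pas, both mating type a with nat-1 inserted at pas, and from 2 wild type (WT) strains, 1 of mating type A and 1 of mating type a. Each strain gave 1 library, so strain and library cannot be told apart. All 4 cultures were shaken for 16 hours at 32 °C in minimal medium with 1.5% sucrose. The other 4 samples of the series are ChIP libraries, which were not analysed here.

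In this fungus, DNA methylation depends on methylation of histone H3 at the lysine called H3K9. The enzyme DIM-5 places that mark as part of a complex called DCDC, with DIM-7, DIM-8 (also called DDB1), DIM-9 and the cullin CUL4. Heterochromatin protein 1, encoded by hpo, binds the mark and recruits the DNA methyltransferase DIM-2, which methylates cytosines, mostly in repeats that were mutated during the sexual cycle. PRC2 acts at other regions, where it methylates another lysine, H3K27, and its catalytic subunit is encoded by set-7.

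The reads assigned to genes ranged from 13679487 to 14679872 in the libraries labelled ∆pas and from 7139105 to 10997599 in WT. For the deleted gene, normalized counts (reads divided by the authors by 1 factor per library) were 43.1 and 98.1 in the libraries labelled ∆pas, against 119 and 95.1 in WT, and the groups overlapped. The pas counts thus do not set the mutant libraries apart, and the directions given here depend on the labels being right. The mating type A gene matA-1 was at 0 and 0.86 in the libraries labelled ∆pas, against 42 in WT replicate 1, labelled mating type A, and 0 in WT replicate 2. The samples are labelled germinated conidia, although the protocol harvests mycelium. Transcripts of the hyphal gene hex-1, whose protein plugs septal pores, ran from 33473 to 46756 normalized counts in libraries labelled ∆pas and from 63600 to 67556 in WT. The 3 conidiation genes con-6, con-10 and eas were above 0 in every library. Their summed level was 6692 and 4850 normalized counts in ∆pas replicates 1 and 2, against 11640 and 31638 in WT replicates 1 and 2. The largest of the 3 in every library was eas, at 3311 and 2983 in the libraries labelled ∆pas, against 8931 and 30017 in WT. In contrast, con-6 was at 999 and 1157 in the libraries labelled ∆pas, against 636 and 562 in WT, and con-10 overlapped between the groups. None of these 3 passed the limma threshold after adjustment; eas and con-6, which differed in opposite directions, had an unadjusted p under 0.05. The part of these differences in the values of the 7 genes was not tested, and in whole cultures fewer cells of a type cannot be told apart from less RNA per cell. The share of all reads outside annotated features was 13.9% and 6.76% in ∆pas replicates 1 and 2, against 5.41% and 15.2% in WT replicates 1 and 2, so it crossed the groups.

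None of the 7 genes passed the threshold between the libraries labelled ∆pas and WT. With limma across all 8219 tested genes, 0 of 7 had an adjusted p under 0.05, where 0.365% of all tested genes did. All 7 had enough reads to be tested. The lowest adjusted p among them was 0.191, for cul4, and the highest was 0.793, for dim-5. At an unadjusted p under 0.05 there was 1 of the 7 (14.3%), against 21.3% of all tested genes. The edgeR test on the recovered reads also called 0 of 7, where it called 0.365% of all genes. DESeq2 called 0 of 7 as well, where it called 7.67% of the genes with an adjusted p. At such shares a count of 0 of 7 does not set the genes apart. Between the libraries of the groups, 4 of the 7 did not overlap (57.1%), against 56% of all tested genes, so this count is near the background.

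**Figure D1:**
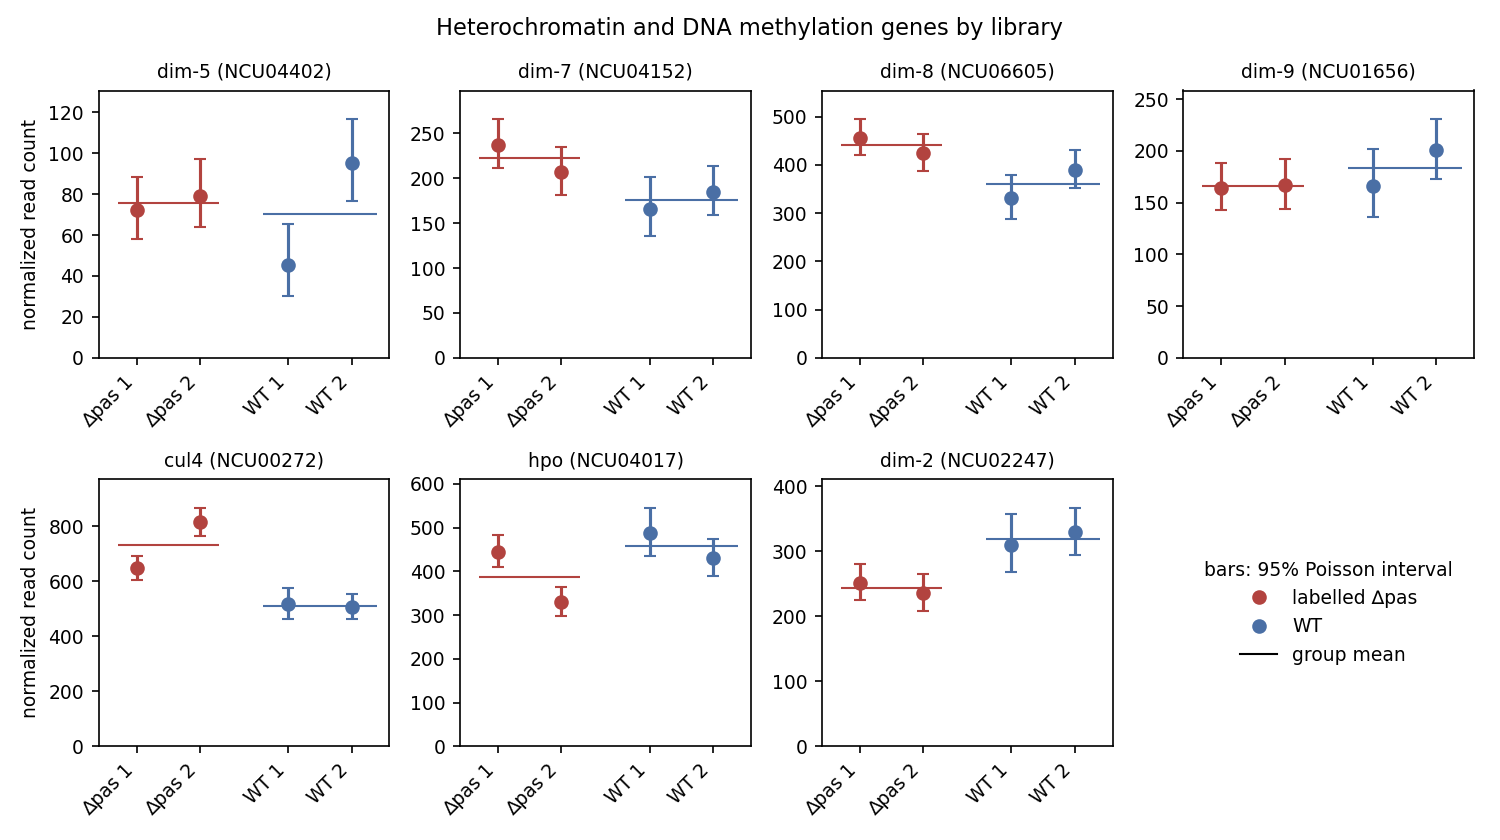
Normalized read count of each gene (linear axis from 0) in the 2 libraries labelled ∆pas and the 2 WT libraries. Points are libraries, bars are 95% Poisson intervals for counting error alone, and horizontal lines are group means. The libraries labelled ∆pas lie above both WT libraries for dim-7, dim-8 and cul4 and below both for dim-2.

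The catalytic subunit, dim-5, had the fewest reads of the 7. It had 72.1 and 79.1 normalized counts in libraries labelled ∆pas, from 92 reads each, against 45.2 and 95.1 in WT, from 28 and 92 reads. Both libraries labelled ∆pas were thus between the WT values. The means were 75.6 ± 4.94 in the libraries labelled ∆pas and 70.1 ± 35.3 in WT (SD, n = 2 each). The log2 fold change was 0.20 ± 0.391 (SE), at a limma adjusted p of 0.793, with a 95% interval from -0.74 to 1.14. The WT libraries themselves differed 2.10-fold, and their exact Poisson intervals, 30.0 to 65.3 and 76.7 to 117 normalized counts, did not overlap. Without WT replicate 1, the library of mating type A, the log2 fold change was -0.33, and without WT replicate 2 it was 0.73. Between ∆pas replicate 2 and WT replicate 1, which had few reads outside features, it was 0.79, and between the other 2 libraries -0.39. The data therefore leave the direction of dim-5 undecided, and the interval includes changes of more than 2-fold upward.

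For dim-7, whose product is needed to bring DIM-5 to heterochromatin, both libraries labelled ∆pas were above both WT libraries. The counts were 238 and 207 in the libraries labelled ∆pas, from 303 and 241 reads, against 166 and 185 in WT, from 103 and 179 reads. The log2 fold change was 0.34 ± 0.203 (SE), at a limma adjusted p of 0.378, with a 95% interval from -0.15 to 0.83.

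The adaptor gene dim-8 showed the same arrangement of libraries. It had 456 and 425 normalized counts in libraries labelled ∆pas, from 582 and 494 reads, against 331 and 390 in WT, from 205 and 377 reads. The log2 fold change was 0.29 ± 0.181 (SE), at a limma adjusted p of 0.387, with a 95% interval from -0.14 to 0.73. As DDB1, the product of dim-8 links substrate receptors to the cullin.

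The gene dim-9 encodes the subunit taken to act as the complex's substrate receptor. It had 165 and 167 normalized counts in libraries labelled ∆pas, from 210 and 194 reads, against 166 and 201 in WT, from 103 and 194 reads. The groups overlapped, since WT replicate 1 lay between the libraries labelled ∆pas. The log2 fold change was -0.14 ± 0.211 (SE), at a limma adjusted p of 0.734, with a 95% interval from -0.65 to 0.37. The difference was 0.0055 between the libraries with few reads outside features and -0.28 between those with many.

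The scaffold gene cul4, which encodes the cullin of the ubiquitin ligase, had the largest difference of the 7. Normalized counts were 647 and 814 in the libraries labelled ∆pas, from 825 and 946 reads, against 516 and 506 in WT, from 320 and 490 reads. Both libraries labelled ∆pas were above both WT libraries. The means were 730 ± 118 in the libraries labelled ∆pas and 511 ± 7.07 in WT (SD, n = 2 each). The difference was 0.50 ± 0.181 on the log2 scale (SE). The unadjusted limma p was 0.0302 and the adjusted p was 0.191, so the difference failed the correction over all genes. Its 95% interval ran from 0.07 to 0.94. The adjusted p was lowest without ∆pas replicate 1, at 0.055 with a log2 fold change of 0.67, and without ∆pas replicate 2 it was 0.421 with a log2 fold change of 0.34. CUL4 is also known to serve ubiquitin ligases outside this pathway.

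The reader gene hpo had 445 and 329 normalized counts in libraries labelled ∆pas, from 567 and 383 reads, against 487 and 430 in WT, from 302 and 416 reads. The groups overlapped, because ∆pas replicate 1 lay inside the WT range. The log2 fold change was -0.26 ± 0.21 (SE), at a limma adjusted p of 0.514, with a 95% interval from -0.77 to 0.25. Between ∆pas replicate 2 and WT replicate 1, where reads outside features were few, the difference was -0.56 on the log2 scale, and between ∆pas replicate 1 and WT replicate 2 it was 0.05.

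The DNA methyltransferase gene dim-2 was the only one of the 7 with both libraries labelled ∆pas below both WT libraries. It had 252 and 236 normalized counts in libraries labelled ∆pas, from 321 and 274 reads, against 310 and 329 in WT, from 192 and 318 reads. The means were 244 ± 11.4 in the libraries labelled ∆pas and 319 ± 13.3 in WT (SD, n = 2 each). The fitted value in the libraries labelled ∆pas was 76.4% of WT, or -0.39 ± 0.181 on the log2 scale (SE). The unadjusted limma p was 0.0728 and the adjusted p was 0.276. Its 95% interval ran from -0.83 to 0.05. Leaving out each library in turn kept the log2 fold change between -0.44 and -0.34, the narrowest such range of the 7.

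**Figure D2:**
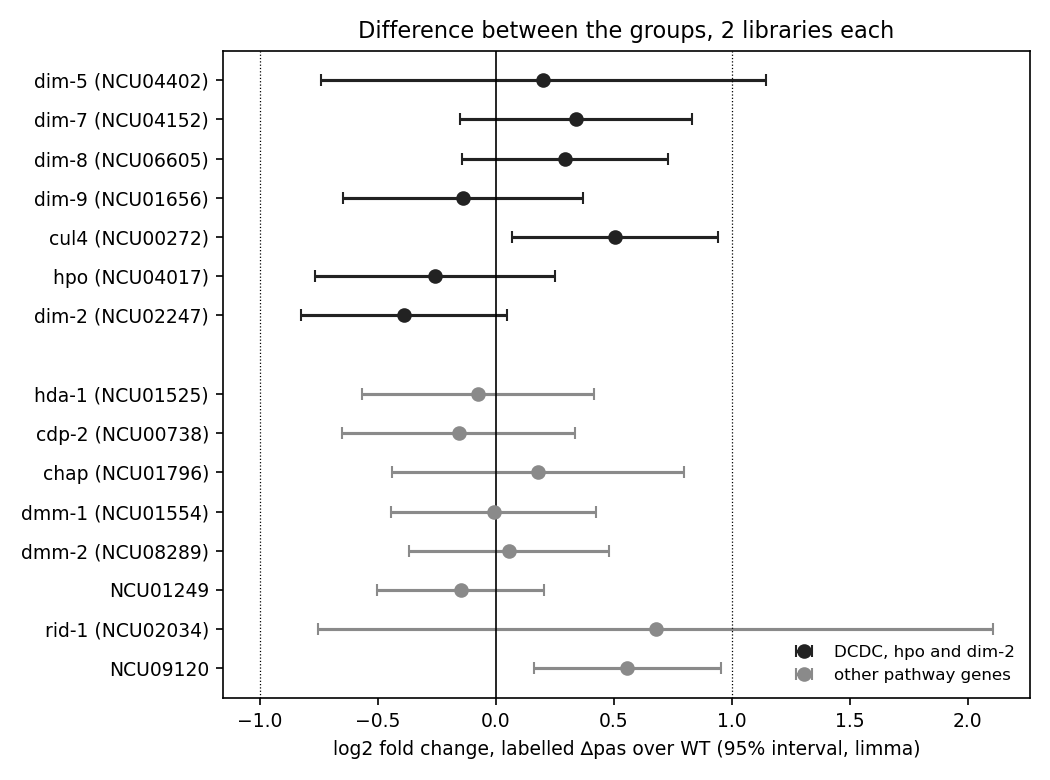
Log2 fold change of the libraries labelled ∆pas over WT on the log2(normalized count + 1) scale, with 95% limma intervals, for the DCDC genes, hpo and dim-2 (black) and the other genes of the pathway (grey). Dotted lines mark a 2-fold change. The intervals of dim-5 and rid-1 cross a dotted line, and those of cul4 and NCU09120 exclude 0 before adjustment.

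As a group, the 7 genes stayed close to the bulk of the transcriptome. Their log2 fold changes ran from -0.39 to 0.50, with 4 above 0 and 3 below and a median of 0.20. The median over all tested genes was 0.03, with 52.9% above 0. The median size of the change, regardless of sign, was 0.29 for the 7 genes and 0.31 for all tested genes. None of the 7 changed 2-fold in the fit, where 7.99% of all tested genes did. At that share a count of none does not set the 7 genes apart. For 6 of the 7, all but dim-5, the 95% interval lay inside a 2-fold change in either direction. The share of all tested genes with such an interval was not counted, so this count does not set the 7 genes apart. The median standard error was 0.203 for the 7 genes and 0.224 for all tested genes. Replicates differed by a median of 0.13 between the libraries labelled ∆pas and 0.18 between the WT libraries on the log2 scale for the 7 genes, against 0.28 and 0.21 for all tested genes.

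**Figure D3:**
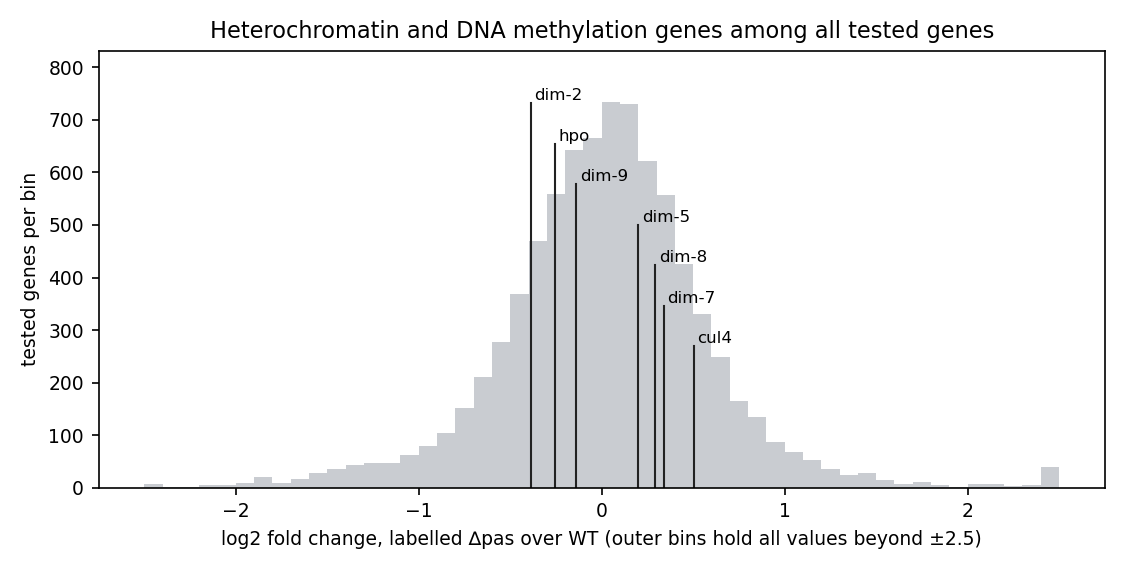
Histogram of log2 fold changes, libraries labelled ∆pas over WT, for the 8219 tested genes, with a vertical line at the value of each of the 7 genes (line heights differ only to separate the names). The lines run from -0.39 for dim-2 to 0.50 for cul4, inside the main body of the histogram.

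Because the complex contains a cullin of other ligases as well, the genes were also set against cul4 in the same library, which removes the library's scaling factor. The log2 ratio of dim-2 to cul4 was -1.36 and -1.79 in the libraries labelled ∆pas, against -0.74 and -0.62 in WT. For hpo the ratio was -0.54 and -1.30 in the libraries labelled ∆pas, against -0.08 and -0.24 in WT. Within the complex, dim-9 had ratios of -1.97 and -2.29 in the libraries labelled ∆pas, against -1.64 and -1.34 in WT. In these 3 of the 6 genes both libraries labelled ∆pas were below both WT libraries, as in 61.1% of all tested genes set against cul4 in the same way. The ratios of dim-5, dim-7 and dim-8 overlapped between the groups, with differences of -0.30, -0.16 and -0.21 on the log2 scale. Every one of the 6 differences contains that of cul4, the highest of the 7, so their sign below 0 was fixed by the choice of cul4. The ratios are a description and were not tested.

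**Figure D4:**
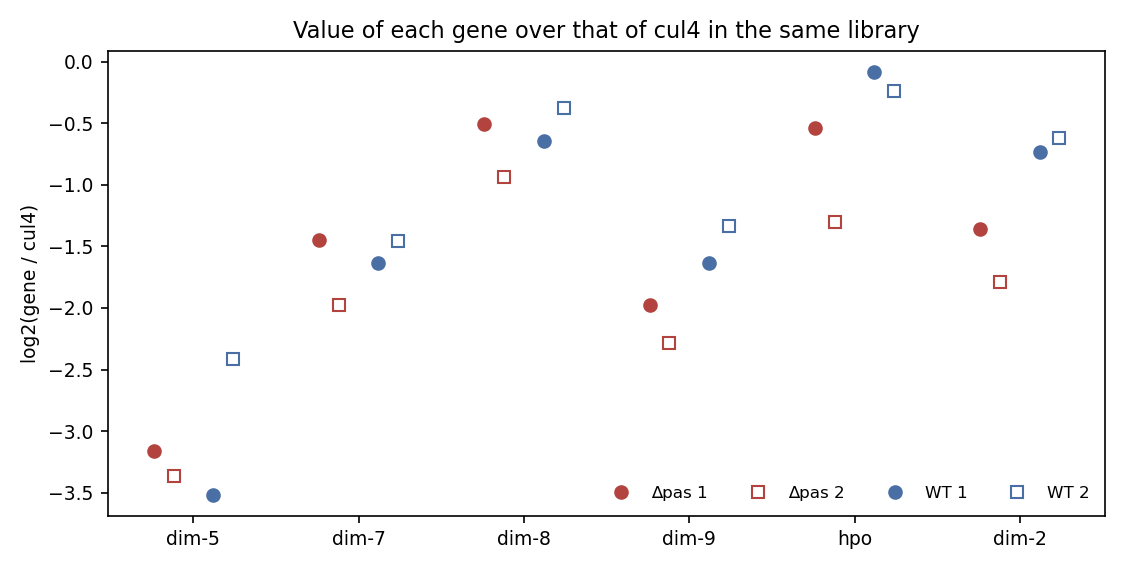
Log2 of each gene's normalized count over that of cul4 in the same library, for the 2 libraries labelled ∆pas (red) and the 2 WT libraries (blue), to be read within a gene because gene length was not taken into account. The red points lie below both blue points for dim-9, hpo and dim-2 and overlap them for dim-5, dim-7 and dim-8.

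The likeness of the genes was described by the distance between their log2 values over the 4 libraries, each centred on the gene's own mean. The closest pair was dim-7 and dim-8, at a distance of 0.098. Among the 8218 other tested genes, dim-8 ranked 29 in closeness to dim-7, and dim-7 ranked 45 in closeness to dim-8. No other pair was as close. The nearest of the 7 ranked 728 for dim-5 (dim-8), 1044 for dim-2 (dim-9), 1124 for dim-9 (dim-2), 1167 for hpo (dim-2) and 1660 for cul4 (dim-8). The tested genes closest to the mean profile of the 7 were NCU07558, NCU05901 and NCU00395, at distances of 0.019, 0.025 and 0.028. The first of these, NCU07558, had 411 and 396 normalized counts in libraries labelled ∆pas, against 350 and 418 in WT. With 4 libraries many genes share any such profile, and the distances are a description only.

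The genes lie away from the chromosome ends, which H3K27 methylation is known to cover in this fungus. In the gene order of the RefSeq NC12 assembly, each was at least 293 genes from the nearest end, with dim-2 the closest and dim-5, at 622, the farthest. Of the 14 genes directly beside them, 13 were tested and 0 were called by limma, with a lowest adjusted p of 0.126, where 0.365% of all tested genes were called. It is not stated whether the authors counted by strand, so reads of overlapping genes on opposite strands cannot be told apart.

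The authors' own comparisons gave no call for any of the 7 genes. In the authors' deposited table for ∆pas, 0 of 7 had an adjusted p under 0.05, where 1.19% of the genes with an adjusted p did. In the authors' deposited table for ∆set-7, in which the catalytic subunit of PRC2 is deleted, 0 of 7 were called, where 5.31% of genes were. At an unadjusted p under 0.05 both of the authors' deposited tables had 0 of 7, against 10.6% of genes for ∆pas and 18.3% for ∆set-7 in the same tables. With so few genes, counts of 0 of 7 at these shares do not set the genes apart. As checks of the strains, pas stood at -0.77 ± 0.357 (log2, SE) relative to WT in the authors' deposited table for ∆pas, with an unadjusted p of 0.0311 and an adjusted p of 0.4. The set-7 transcript stood at -3.51 ± 0.4 (log2, SE) relative to WT in the authors' deposited table for ∆set-7, with an adjusted p of 1.14e-15.

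Side by side, cul4 had log2 fold changes over WT of 0.30 ± 0.21 in ∆pas and 0.22 ± 0.211 in ∆set-7 (SE) in the authors' deposited tables. For dim-2 the authors' deposited tables gave -0.12 ± 0.263 in ∆pas and -0.27 ± 0.267 in ∆set-7 (SE). The values of dim-5 in the authors' deposited tables were -0.16 ± 0.335 in ∆pas and -0.21 ± 0.342 in ∆set-7 (SE). Those of dim-7 were 0.03 ± 0.266 in ∆pas and 0.21 ± 0.268 in ∆set-7 (SE), also in the authors' deposited tables. The authors' deposited tables listed dim-8 at -0.06 ± 0.274 in ∆pas and 0.28 ± 0.275 in ∆set-7 (SE). For dim-9 they were -0.17 ± 0.212 in ∆pas and 0.01 ± 0.216 in ∆set-7 (SE) in the authors' deposited tables. Lastly, hpo stood at 0.04 ± 0.292 in ∆pas and 0.15 ± 0.293 in ∆set-7 (SE) in the authors' deposited tables. Adjusted p-values ran from 0.653 to 0.985 for ∆pas and from 0.627 to 0.988 for ∆set-7 in the authors' deposited tables. The ∆pas and ∆set-7 comparisons were made against WT libraries that they may share, so like signs between them carry no independent weight. For dim-5, dim-8 and hpo the authors' deposited ∆pas value had the opposite sign to the value fitted here on 4 libraries. Which libraries entered the authors' fit is not stated, and the difference was not tested.

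**Figure D5:**
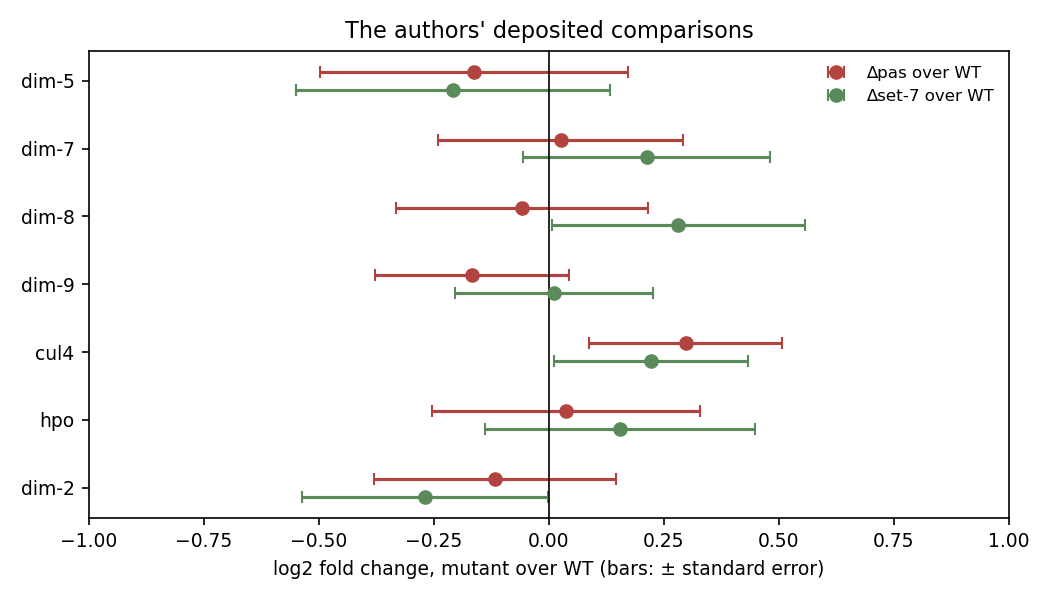
Log2 fold changes of mutant over WT in the authors' deposited tables for the 7 genes, ∆pas in red and ∆set-7 in green, with bars of ± 1 standard error. All 14 values lie between -0.27 and 0.30, and none had an adjusted p under 0.05.

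Of 8 further genes that act on this kind of chromatin or on repeats, or were listed with them, 0 were called by limma, edgeR or DESeq2, where 0.365%, 0.365% and 7.67% of all genes were. At such shares a count of 0 of 8 does not set the list apart. With limma, 4 were above 0 and 4 below, with a median log2 fold change of 0.02 against 0.03 for all tested genes. At an unadjusted limma p under 0.05 there was 1 of 8, against 21.3% of all tested genes. The libraries of the groups did not overlap for 2 of the 8, 1 higher and 1 lower, against 56% of all tested genes. The 95% interval lay inside a 2-fold change in either direction for 7 of the 8, and the share of all tested genes was not counted.

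The HCHC complex joins heterochromatin protein 1 with the histone deacetylase HDA-1, the chromodomain protein CDP-2 and CHAP. Its deacetylase gene hda-1 (NCU01525) had 277 and 309 normalized counts in libraries labelled ∆pas, against 274 and 346 in WT, a log2 fold change of -0.08 ± 0.203 (SE), at a limma adjusted p of 0.855. For cdp-2 (NCU00738) the counts were 198 and 173 in the libraries labelled ∆pas, against 195 and 219 in WT, with a log2 fold change of -0.16 ± 0.204 (SE), at a limma adjusted p of 0.684. The gene chap (NCU01796) had 116 and 166 in the libraries labelled ∆pas, against 119 and 126 in WT, with a log2 fold change of 0.18 ± 0.257 (SE), at a limma adjusted p of 0.721. The groups overlapped for all 3 of these HCHC genes. In the authors' deposited table for ∆set-7, chap was at 0.61 ± 0.222 on the log2 scale (SE), with a p of 0.00612 and an adjusted p of 0.0861. It was the only one of the 8 with an unadjusted p under 0.05 there, against 18.3% of genes. After adjustment 0 of the 8 were called there, where 5.31% of genes were. At these shares neither count sets the 8 genes apart.

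The genes dmm-1 (NCU01554) and dmm-2 (NCU08289) encode the partners that keep heterochromatin from spreading past its borders. Of the 8, they had the smallest fitted differences. The counts of dmm-1 were 374 and 332 in the libraries labelled ∆pas, against 341 and 370 in WT, with a log2 fold change of -0.01 ± 0.179 (SE), at a limma adjusted p of 0.981. Those of dmm-2 were 367 and 369 in the libraries labelled ∆pas, against 376 and 334 in WT, with a log2 fold change of 0.05 ± 0.175 (SE), at a limma adjusted p of 0.882. For both genes the groups overlapped.

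The gene rid-1 (NCU02034) encodes a DNA methyltransferase relative required for repeat-induced point mutation in the sexual cycle, and few reads fell in it here. It had 35.3 and 21.5 normalized counts in libraries labelled ∆pas, from 45 and 25 reads, against 9.68 and 28.9 in WT, from 6 and 28 reads. The groups overlapped, and the log2 fold change of 0.68 ± 0.592 (SE), at a limma adjusted p of 0.543 had a 95% interval from -0.75 to 2.11, the widest of the 15 genes. The reference table does not name 2 of the genes. Of these, NCU01249 had 1713 and 1550 normalized counts in libraries labelled ∆pas, against 1808 and 1807 in WT. Its libraries labelled ∆pas were both below both WT libraries. The log2 fold change was -0.15 ± 0.147 (SE), at a limma adjusted p of 0.587. The other, NCU09120, had 897 and 1009 in the libraries labelled ∆pas, against 683 and 612 in WT. Both of its libraries labelled ∆pas were above both WT libraries. The difference was 0.56 ± 0.164 on the log2 scale (SE). The unadjusted limma p was 0.0134 and the adjusted p was 0.137, so it did not pass the correction over all genes.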

How the data were processed

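The values deposited by the authors are reads per gene scaled by library, a signal of 0 or more (normalized counts). Poly-A RNA libraries were stranded per the labels' protocols. Bowtie2, DESeq2 and deepTools are named, with no role, in the submitters' processing notes; the counter, annotation and build are not given in the sources used here. Values were whole multiples of 1 step per library (100% of genes, within 0.01 reads), so reads could be recovered. A further 4 columns, named for WT and set7, match no sample of the series and were not used. The WT values given here thus leave out those WT columns. Summary entries took 12.1% to 22% of reads and were left out.

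Genes with a mean of at least 5 (8219; 1511 were not tested) entered limma 3.58.1 (R 4.3.3) after the transform log2(normalized count + 1). The fit had an intensity trend and only the group as a term. Two-sided p-values were adjusted over all of these genes (Benjamini-Hochberg). Fold changes on this scale understate those of low genes. Alternatives were edgeR 4.0.16 and DESeq2 1.42.0 on the recovered reads, other scalings, pseudocounts and filters, a covariate, and leaving out each library. The design had foreseen limma for normalized values. Replicates are numbered in sample order and pair nothing; p-values measure the spread between these strains' libraries. A count of 0 allows up to 3 reads, 2.35 to 4.84 normalized counts; intervals and this floor cover counting error only.

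In the authors' deposited comparison tables the log2 fold change, its standard error, a Wald score and the p-value are given per the file headers. The sign was turned to mutant over WT, since set-7 is positive in the deposited ∆set-7 table.

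The genes and lists were chosen with earlier results of these data known. All 7 genes, 8 pathway genes and the 3 genes nearest in profile were to be named. RefSeq's NC12 table gave names and gene order only, so levels were not compared between genes per length.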

Additional observations from a re-analysis of the deposited data

How the results depend on the processing

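In none of the alternatives that give a test, including an adjusted p under 0.1, was any of the 7 genes or of the 8 pathway genes called. Over 17 alternatives, cul4, dim-7, dim-8 and dim-2 kept their sign, with log2 fold changes of 0.34 to 0.67, 0.24 to 0.44, 0.18 to 0.41 and -0.44 to -0.34. The groups did not overlap for these genes, so leaving out a library or pairing libraries could not turn the sign. The kept sign is therefore no separate support. In the authors' deposited table for ∆pas, dim-8 had the opposite sign, at -0.06. For dim-5 the range without 1 library was -0.33 to 0.73. Within the library pairs with few and many reads outside features, values were 0.79 and -0.39 for dim-5, 0.0055 and -0.28 for dim-9, and -0.56 and 0.048 for hpo; the cause was not tested. Over all genes, limma called 30 (23 higher, 7 lower). The count was 18 with no filter, 19 with quantile scaling, 7 without a trend, 13 with the share of reads outside features as a covariate, 606 (259 higher, 347 lower) with DESeq2 and 490 at an adjusted p under 0.1. Without 1 library it ran from 0, without either WT replicate, to 1103, without ∆pas replicate 1, and was 47 without ∆pas replicate 2. Pair values give no count of calls, and the order of levels per length was not run. No paired analysis was possible because the replicate numbers only follow sample order. The 28 reads of dim-5 and the 6 of rid-1 in WT replicate 1 limit what can be said of these genes.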
